A study of Homo sapiens with 12 samples.

Results

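The mRNAs described here encode the collagen, laminin and integrin chains, together with 7 further matrix glycoproteins (FN1, FBN1, FBN2, NID1, NID2, HSPG2 and TNC). Genes were chosen by symbol: COL, LAMA, LAMB, LAMC, ITGA or ITGB stems with their chain number or letter, plus the 7 named glycoproteins. The rule itself uses symbols and no measured value, though earlier results of these data were known when it was written. Of 19775 genes measured through a probe set with a single symbol, 89 matched. Of these, 39 reached a log2 intensity of 6 on at least 4 of the 12 arrays and were analysed: 13 of 43 collagen chains, 5 of 10 laminin chains, 15 of 25 integrin subunits, 5 of 7 glycoproteins and ITGB3BP. All 12 values of 21 members were at that level. ITGB3BP, a centromere protein, matches the rule by its letters only. The other 50 did not reach that level and have no test. Whether a gene was kept depended on its level, so the 39 are the detected members and not the whole family.

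Epithelial cells of the breast rest on a basement membrane, a sheet built from laminin trimers, a network of type IV collagen, nidogens and perlecan. Integrins, receptors made of 1 alpha and 1 beta subunit, hold the cell to that sheet and pass signals inwards. ITGA6 with ITGB4 forms the hemidesmosome receptor of basal epithelial cells, and ITGB1 pairs with many alpha subunits to bind collagen, laminin and fibronectin. All these proteins are secreted or inserted into membranes, so their mRNAs are translated at the endoplasmic reticulum.

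The RNA came from MCF10A, an immortalised human mammary epithelial line that is used as a non-tumorigenic model. Its origin is labelled breast cancer. The cells were wild type (WT) or had eIF4G1, the scaffold protein of the cap-binding translation initiation complex, silenced with a short hairpin RNA under doxycycline control, and each genotype was mock-treated or irradiated with 10 Gy from a linear accelerator. From each of the 4 conditions, 3 RNA preparations were hybridised: total RNA (Total), a light polysome pool (LMW, 1 to 3 ribosomes per mRNA in the WT mock label) and a heavy polysome pool (HMW, 4 or more ribosomes). There was 1 array per condition and preparation. Neither a hairpin or doxycycline in the WT cells nor the time from irradiation to harvest is given in the sources used here. No label says that the arrays came from separate cultures, so no p-value here measures the spread between cultures. Without replicate arrays, the reported fits judge an effect against how far it differed between conditions, which may include technical spread.

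The targeted mRNA, EIF4G1, was at log2 10.01 and 9.76 in WT Total and at 7.35 and 7.46 in knockdown Total. The basal epithelial markers measured here (KRT5, KRT14, CDH3 and EGFR) were at level on every array, as were the luminal markers KRT8, KRT18 and GATA3. The luminal marker ESR1 was at level on 6 arrays, and KRT19, PGR and FOXA1 on 0. The 4 endothelial markers were below level on every array. LUM, PDGFRA, THY1 and POSTN of the 6 fibroblast markers and PTPRC and CD3E of the 3 leukocyte markers were also below level throughout. The other fibroblast markers, DCN and PDGFRB, were at level on 10 and 7 arrays, and the leukocyte marker CD14 on 10. The 3'-to-5' log2 difference of the ACTB control probes ran from 1.20 to 2.10 and that of GAPDH from 0.21 to 0.45. The WT mock HMW array stood apart from its Total array across all genes. There, 21.9% of all genes were at least 2-fold lower in HMW than in Total, against 6.14 to 9.05% in the other conditions. The matching share for LMW is not given. Counts of members changed by the knockdown in Total, LMW, HMW and HMW minus Total are therefore also given for the irradiated pair alone, and so is each named knockdown call on polysomes whose size falls by over 1.5 times there.

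Levels below are log2 intensities on the authors' RMA scale, listed in the order WT mock, WT 10 Gy, knockdown mock and knockdown 10 Gy. They are relative to the other mRNAs on the same array, and levels of different genes are not compared. Differences are on the log2 scale, where 1 is 2-fold, with the standard error (SE) of the limma fit and a p adjusted by Benjamini-Hochberg over all 10157 genes kept. A gene is said to have risen or fallen where that p was under 0.05.

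**Figure D1:**
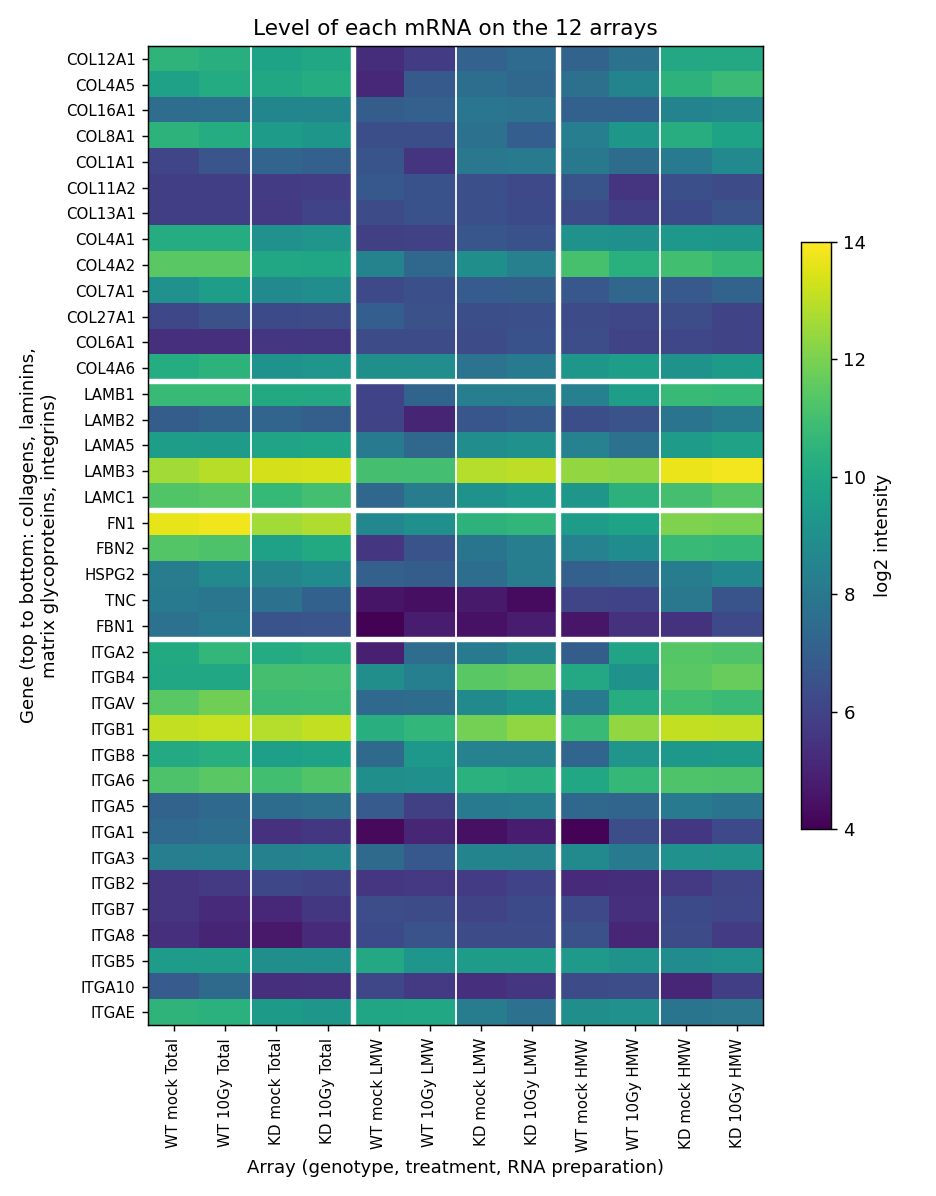
Heat map of the log2 intensity of the 38 analysed chains and glycoproteins (rows, by family) on the 12 arrays (columns, by RNA preparation, genotype and treatment). Most rows are darkest in the LMW block, and in the HMW block the knockdown columns are brighter than the WT columns for FN1, from 9.50 and 9.78 to 12.08 and 11.99, and for ITGA2, from 6.94 and 9.84 to 11.38 and 11.26.

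The starts of several type IV collagen genes lie close together and point away from each other, and the pairs are shown because the 2 genes of one pair moved together in Total and those of the other did not. RefSeq (GRCh38.p14) places 126 bases between the starts of COL4A1, on the minus strand, and COL4A2, on the plus strand, at chr13:110307158-110307283. The first sequence is that interval on the plus strand, with capitals at the single match to CCAAT and the single match to GGGCGG. COL4A5 (plus strand) and COL4A6 (minus strand) start 379 bases apart on chromosome X, and COL4A6 has 2 listed starts, of which the nearer to COL4A5 is used. The second sequence, chrX:108439588-108439837 on the plus strand, holds the 250 bases before the COL4A5 start. The third, chrX:108439459-108439708 on the minus strand, holds the 250 bases before that COL4A6 start, and capitals in both mark the 121 bases they share.
COL4A1-COL4A2 gap: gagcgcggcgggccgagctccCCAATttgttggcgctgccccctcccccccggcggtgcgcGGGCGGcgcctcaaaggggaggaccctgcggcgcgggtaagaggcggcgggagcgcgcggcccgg
COL4A5 upstream: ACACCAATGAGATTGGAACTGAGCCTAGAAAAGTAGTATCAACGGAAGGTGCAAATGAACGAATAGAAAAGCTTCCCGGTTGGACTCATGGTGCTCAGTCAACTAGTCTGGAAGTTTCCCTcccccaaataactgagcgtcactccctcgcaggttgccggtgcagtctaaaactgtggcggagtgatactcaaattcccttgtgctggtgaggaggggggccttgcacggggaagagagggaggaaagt
COL4A6 upstream: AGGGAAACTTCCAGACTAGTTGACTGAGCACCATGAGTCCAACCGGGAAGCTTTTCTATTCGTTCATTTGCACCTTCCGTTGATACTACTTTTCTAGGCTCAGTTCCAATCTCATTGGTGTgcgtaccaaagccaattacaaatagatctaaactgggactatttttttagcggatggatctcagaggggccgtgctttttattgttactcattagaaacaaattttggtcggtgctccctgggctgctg
On both strands, CCAAT was found in 21.1% and GGGCGG in 34.6% of all 35116 listed upstream windows cut to the same length as the COL4A1-COL4A2 interval. TATAAA was not found in that interval and was found in 5.87% of windows of that length. In windows of 250 bases the COL4A5 side held 2 and the COL4A6 side 3 matches to CCAAT, a motif found in 32.0% of such windows. The 2 on the COL4A5 side lie in the shared bases and are also counted on the COL4A6 side. Neither window held GGGCGG, found in 42.6%. A match here describes letters and not a bound site. With the knockdown, COL4A1 and COL4A2 in Total differed from WT by -1.05 and -1.52, whereas COL4A5 and COL4A6 differed by 0.17 and -1.19. The COL4A5 difference did not pass the test (adjusted p = 0.212). The difference between the genes of a pair was not tested.

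The first comparison was heavy against light polysomes, which asks on which pool an mRNA lay, over 4 matched pairs. Of the 39 members, 22 were higher in HMW and 1 was lower, where 19.6% of all genes were called higher and 21.1% lower. The median difference of the members was 0.90, against -0.06 over all genes. By family, all 5 laminins, 7 of 13 collagens, 4 of 5 glycoproteins and 6 of 15 integrins were higher in HMW. The count depends on treating each condition as a matched pair: without that block 2 members were called, COL4A1 and COL4A2. Leaving out 1 pair at a time gave 18 to 23 calls. Among the 7 collagens, COL1A1 rests on its probe set, at 1.05 (SE 0.30, adjusted p = 0.0294) and 0.06 with the median of its probe sets.

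COL4A1, COL4A2 and COL4A5, chains of the type IV collagen that builds the basement membrane network, were among the members with the greatest skew to heavy polysomes. COL4A1 was at 10.18, 10.19, 9.07 and 9.21 in Total, 5.88, 5.98, 6.68 and 6.53 in LMW and 9.11, 9.03, 9.34 and 9.28 in HMW. Its 4 HMW values all lay above its 4 LMW values, with a difference of 2.92 (SE 0.15, adjusted p = 0.000309), in 4 of 4 pairs. COL4A2, its partner chain, was at 11.45, 11.45, 9.95 and 9.92 in Total, 8.47, 7.38, 8.97 and 8.34 in LMW and 11.08, 10.35, 10.97 and 10.64 in HMW. Here too HMW and LMW did not overlap, and the difference was 2.47 (SE 0.18, adjusted p = 0.000627). COL4A5 was at 5.13, 6.82, 7.60 and 7.37 in LMW and 7.68, 8.51, 10.47 and 10.83 in HMW, a difference of 2.64 (SE 0.27, adjusted p = 0.00174). COL4A6 showed a smaller one, 0.90 (SE 0.21, adjusted p = 0.0138), also in 4 of 4 pairs. COL8A1, a short-chain network collagen, differed by 2.51 (SE 0.19, adjusted p = 0.000627). COL12A1, which decorates the surface of collagen fibrils, differed by 2.34 (SE 0.20, adjusted p = 0.00101). COL4A1 and COL12A1 were at level on 2 of 4 LMW arrays and COL4A5 on 3, so their differences include values below level. COL7A1, the collagen of the anchoring fibrils beneath the epidermis, was at 9.06, 9.62, 8.74 and 8.92 in Total, 6.21, 6.44, 6.91 and 6.95 in LMW and 6.73, 7.29, 6.77 and 7.19 in HMW. Its polysome values overlapped between the pools, and its difference of 0.37 did not pass the test (adjusted p = 0.148).

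The laminin chains were all skewed to heavy polysomes, by unequal amounts. LAMB1 differed by 2.40 (SE 0.12, adjusted p = 0.000309) and LAMC1 by 2.04 (SE 0.13, adjusted p = 0.000406), both in 4 of 4 pairs. LAMB2 differed by 1.13 (SE 0.21, adjusted p = 0.00743), LAMB3 by 1.07 (SE 0.12, adjusted p = 0.00252) and LAMA5 by 0.49 (SE 0.13, adjusted p = 0.0259). In LAMA5, unlike LAMB1, HMW and LMW values overlapped across conditions, since knockdown LMW exceeded WT HMW. Among the glycoproteins, FBN2, a microfibril component, differed by 2.60 (SE 0.15, adjusted p = 0.000341), TNC, which modulates cell adhesion, by 2.18 (SE 0.30, adjusted p = 0.00396), FN1, fibronectin, by 1.16 (SE 0.18, adjusted p = 0.00487) and FBN1 by 0.90 (SE 0.20, adjusted p = 0.0131). FBN1 was at level on 1 HMW array and 0 LMW arrays, so its difference is mostly between values below level. TNC was at level on 0 LMW arrays, and FBN2 and LAMB2 on 3 of 4. HSPG2, the core protein of perlecan, differed by 0.35 without passing the test (adjusted p = 0.0986).

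Some integrin subunit mRNAs passed the test as higher in HMW and others did not. The collagen receptor subunit ITGA2 was higher in HMW by 2.55 (SE 0.21, adjusted p = 0.000822), the RGD-binding subunit ITGAV by 1.83 (SE 0.30, adjusted p = 0.00574), ITGA6 by 1.10 (SE 0.17, adjusted p = 0.00462) and ITGB1 by 1.03 (SE 0.21, adjusted p = 0.00961), each in 4 of 4 pairs. ITGA2 was at level on 3 of 4 LMW arrays, with 4.90 in WT mock, and a second ITGA2 probe set read 1.49. ITGA3, a laminin receptor subunit, was higher by 0.97 in 4 of 4 pairs, and ITGA1 by 0.94 in 3 of 4. ITGA1 was at level on 2 HMW arrays and 0 LMW arrays, so its difference rests largely on values below level. ITGB4 (0.50, adjusted p = 0.0954), though higher in 4 of 4 pairs, and ITGA5, the fibronectin receptor subunit (0.36, adjusted p = 0.324), did not pass. ITGB5 was the member called lower, at -0.49 (SE 0.14, adjusted p = 0.0301), but that call rests on its probe set: without probe sets whose names end in _x_at or _s_at it read 0.13.

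Against total RNA, in fits that share the polysome arrays with the first, the light pool read lower for most of these mRNAs. In LMW, 26 members were lower and 5 higher than in Total, where 28.1% of all genes were called lower and 28.5% higher, and the member median was -1.28 against 0.01 over all genes. All 5 laminins and all 5 glycoproteins were lower in LMW, with FN1 at -3.53, FBN2 at -3.50, TNC at -3.20, COL12A1 at -3.71 and COL4A1 at -3.40. The 5 listed higher (COL11A2, COL13A1, COL6A1, ITGA8 and ITGB7) never reached log2 7 on any array. COL11A2, COL6A1, ITGA8 and ITGB7 were at level on 0 Total arrays and entered the fits through their polysome values alone, so these 4 had to read higher there and their calls are not read as a result. COL13A1 was at level on 1 Total array. Conversely, FBN1, ITGA1 and TNC were at level on 0 LMW arrays, so their LMW values are below level. COL12A1 and COL4A1 were at level on 2 of 4 LMW arrays. In HMW, 6 members were lower than in Total and 4 higher, where 18.6% of all genes were called lower and 17.4% higher. The 6 lower ones were FN1 (-2.37, SE 0.61, adjusted p = 0.0201), COL7A1 (-2.09, SE 0.19, adjusted p = 0.000734), FBN1 (-1.85, SE 0.42, adjusted p = 0.0126), ITGAE (-1.45, SE 0.17, adjusted p = 0.0014), LAMA5 and HSPG2, each in 4 of 4 pairs. FBN1 was at level on 4 Total arrays, 1 HMW array and 0 LMW arrays. It entered the fits through Total, where it is higher, so its lower calls in HMW and LMW are not read as a result. COL1A1, COL6A1, ITGA8 and ITGB7 were the higher ones. COL1A1 did not pass with the median of its probe sets, which read 0.59 against 1.35 (adjusted p = 0.0569), and the other 3 have the level limit just given. Without the WT 10 Gy pair 5 members were called, 3 higher and 2 lower.

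That fit averages over genotypes, and the HMW level relative to Total differed between them. In WT, the median member had an HMW intensity of 47.7% of its Total intensity in mock cells and 53.9% after 10 Gy. In knockdown cells the medians were 121% and 119%. Over all genes the medians were 99.4, 105, 99.2 and 105%. At 50% or less of Total were 20 members in WT mock and 17 in WT 10 Gy, where 21.9 and 7.28% of all genes were so low, and 3 and 2 members in the knockdown, where 9.05 and 6.14% were. FN1 was the lowest member in WT, at 5.65% and 6.21%, and stood at 69.5% and 57.4% in the knockdown. ITGA2 was at 11.3% and 58.2% in WT and at 231% and 199% in the knockdown, so its WT mock value was also well below its irradiated one. FBN2 was at 13.3% and 19.8% in WT and at 203% and 151% in the knockdown. COL7A1 was low in both genotypes, at 19.9, 19.8, 25.6 and 30.2% in the 4 conditions.

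**Figure D2:**
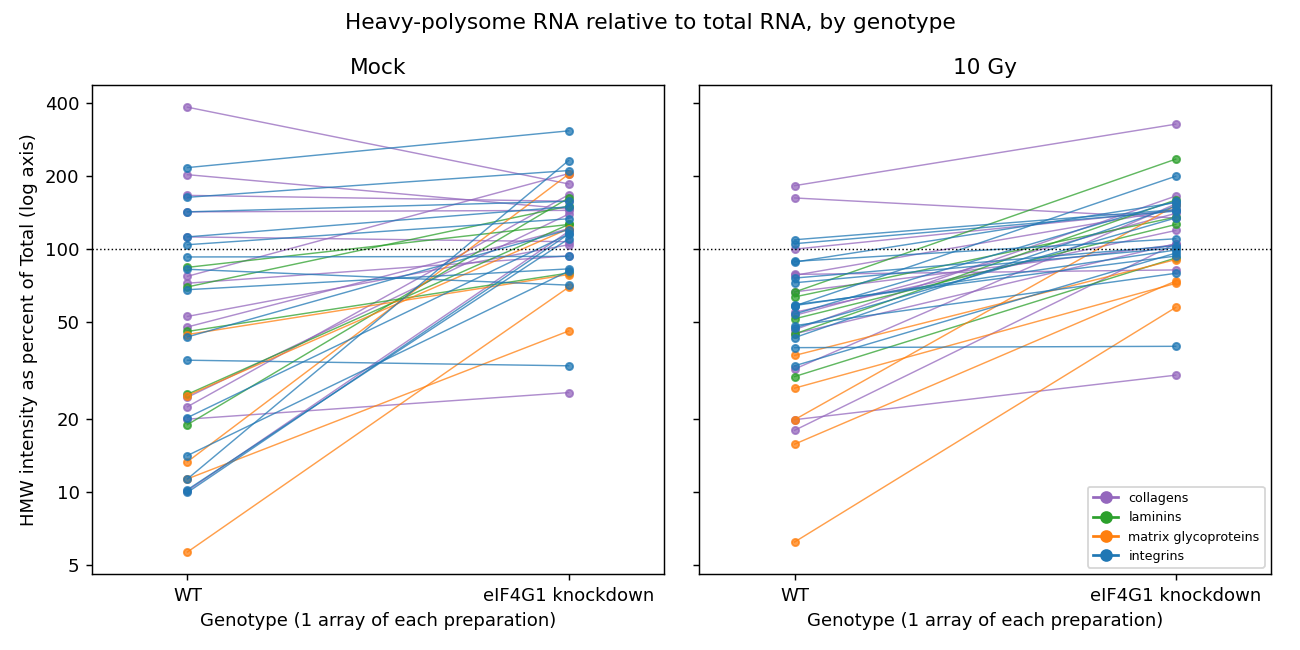
HMW intensity as a percent of Total intensity (log axis) for the 38 chains and glycoproteins, each a line from WT to eIF4G1 knockdown, for mock cells (left) and 10 Gy (right), coloured by family. Most lines climb, and FN1 is the lowest line at the WT end in both panels, at 5.65 and 6.21%.

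The second question was how silencing of eIF4G1 changed each RNA preparation, with 2 matched pairs (mock and 10 Gy) in each. In Total, 19 of 39 members fell and 6 rose with the knockdown, where 19.8% of all genes fell and 20.7% rose. Every call had the same sign in 2 of 2 pairs, and the member median was -0.22 against 0.03 over all genes. In bulk RNA, fewer cells of a type and less RNA per cell cannot be told apart. The fit with all 12 arrays together, where the spread includes the polysome arrays, called 3 of these: COL4A2, FN1 and ITGA10. ITGA10, among the falls, was at level on 0 knockdown arrays, and ITGB2, among the rises, on 0 WT arrays. Each entered the fits only through the genotype where it is higher, so neither call is read as a result. In the mock pair alone 9 members were at least 2-fold lower and 3 higher, and in the 10 Gy pair 7 were lower and 1 higher, against 3.89, 1.97, 4.94 and 1.40% of all genes.

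The mRNAs that fell in Total came from each family. ITGA1, a collagen receptor subunit, was at 7.41, 7.62, 5.42 and 5.62 in Total, 4.26, 5.08, 4.47 and 4.76 in LMW and 4.08, 6.41, 5.61 and 6.21 in HMW. Its Total values did not overlap between the genotypes and differed by -2.00 (SE 0.14, adjusted p = 9.11e-06). It was at level on 3 WT arrays and 1 knockdown array. ITGA10, another collagen-binding subunit, was at 6.89, 7.44, 5.33 and 5.41 in Total. It reached level on 5 WT arrays and 0 knockdown arrays, so it entered the fits only through WT, and its difference of -1.79 is against values below level. ITGAE, the subunit that binds E-cadherin, differed by -1.08 (SE 0.09, adjusted p = 3.23e-05). ITGAV differed by -0.77, ITGB5 by -0.56 and ITGB8, a partner of ITGAV, by -0.46. Among the collagens, COL4A2 (-1.52, SE 0.08, adjusted p = 3.67e-06), COL4A6 (-1.19, SE 0.10, adjusted p = 2.41e-05), COL4A1 (-1.05, SE 0.10, adjusted p = 4.39e-05), COL8A1, COL7A1 and COL12A1 fell. COL12A1 is uncertain in Total, where a second probe set at level read 0.86 against -0.49. FBN2 (-1.37, SE 0.12, adjusted p = 2.81e-05), FBN1 (-1.29, SE 0.12, adjusted p = 5.07e-05), FN1 (-1.02, SE 0.05, adjusted p = 2.26e-06) and TNC (-0.60, SE 0.13, adjusted p = 0.005) were the glycoproteins that fell. LAMB1 (-0.68) and LAMC1 (-0.47) fell among the laminins, and a second LAMC1 probe set read 0.06.

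The members that rose in Total were ITGB4 (1.03, SE 0.09, adjusted p = 2.5e-05), COL16A1 (0.96, SE 0.11, adjusted p = 0.000122), COL1A1, LAMB3 (0.62, SE 0.07, adjusted p = 0.000117), ITGB2 and LAMA5 (0.33, SE 0.10, adjusted p = 0.0226). ITGB2 reached level on 4 knockdown arrays and 0 WT arrays, so it entered the fits only through the group in which it is higher. COL1A1 turned from 0.78 to -0.20 when the median of its 5 probe sets was used, so it has no settled direction in Total. ITGB1 was at 13.07, 13.17, 12.87 and 13.07 in Total and differed by -0.15 (SE 0.06, adjusted p = 0.0561). ITGA2 was at 10.09, 10.62, 10.17 and 10.27 there, with overlapping genotypes, and differed by -0.13 (adjusted p = 0.388). ITGA3, ITGA5, ITGA6, LAMB2, HSPG2 and COL4A5 likewise did not pass the test in Total.

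On heavy polysomes, 17 of 39 members rose with the knockdown and 0 fell, where 5.82% of all genes rose and 4.09% fell. At an unadjusted limma p under 0.05, 20 members were higher and 2 lower, against 11.0% and 9.32% of all genes. The member median was 0.84, against -0.0049 over all genes. All 5 laminins rose, as did 4 of 5 glycoproteins, 4 of 13 collagens and 4 of 15 integrins. In 25 members both knockdown HMW values lay above both WT values, which held for 22.3% of all genes, and in 3 both lay below, which held for 28.8%. The count did not rest on the WT mock array alone: in the mock pair 20 members were at least 2-fold higher (15.2% of all genes), and in the 10 Gy pair 14 were (4.22%). The fit pooled the spread over all genes, so a gene's own spread does not enter its p in either polysome pool, nor in the tests of HMW minus Total, HMW minus LMW and 10 Gy on polysomes further on, all of which leave 1 residual degree of freedom. With all 12 arrays in one fit 14 members were called in HMW, 13 of them higher, and COL8A1, ITGA2, ITGAV and TNC no longer passed (adjusted p = 0.0885, 0.0531, 0.0679 and 0.0605).

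ITGA2 had the greatest mean HMW difference of the 39 members, and that rank rests on the WT mock array. It was at 10.09, 10.62, 10.17 and 10.27 in Total, 4.90, 7.56, 8.15 and 8.62 in LMW and 6.94, 9.84, 11.38 and 11.26 in HMW. Both knockdown HMW values exceeded both WT values, with a difference of 2.93 (SE 0.38, adjusted p = 8.39e-12). The difference was 4.44 in the mock pair and 1.42 in the 10 Gy pair, where 9 members had a greater one, ITGB4 the greatest at 2.57. A second ITGA2 probe set, at level on 12 arrays, read 1.88. Its partner ITGB1 was at 10.29, 10.62, 11.91 and 12.34 in LMW and 10.76, 12.39, 13.06 and 13.05 in HMW, where the genotypes did not overlap and differed by 1.48 (SE 0.23, adjusted p = 1.23e-08), with 2.30 in the mock pair and 0.66 in the 10 Gy pair. ITGAV was at 11.43, 11.83, 10.84 and 10.88 in Total, 7.41, 7.52, 8.74 and 9.18 in LMW and 8.14, 10.23, 10.97 and 10.82 in HMW, which was lower than WT in Total and higher in HMW, by 1.71 (SE 0.37, adjusted p = 0.000204). That mean came from 2.83 in the mock pair and 0.59 in the 10 Gy pair. ITGB4, the hemidesmosome subunit, was at 10.00, 9.99, 11.04 and 11.01 in Total, 8.94, 8.32, 11.43 and 11.59 in LMW and 10.05, 9.10, 11.45 and 11.67 in HMW. It rose in all 3 preparations, in HMW by 1.98 (SE 0.34, adjusted p = 7.47e-07). ITGA6, the partner of ITGB4, was at 11.22, 11.44, 10.98 and 11.30 in Total, 9.00, 9.02, 10.38 and 10.31 in LMW and 10.01, 10.67, 11.24 and 11.20 in HMW, and its HMW difference of 0.88 did not pass the test (adjusted p = 0.0682). For ITGA3 the HMW values were 8.78, 8.15, 9.06 and 9.15 and for ITGA5 they were 7.33, 7.27, 8.11 and 7.83. Both genes were higher in both pairs without passing, by 0.64 and 0.67. ITGAE went the other way, at 8.98, 9.05, 7.87 and 7.95 in HMW, with -1.11 (adjusted p = 0.0756).

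The laminin mRNAs rose in HMW whether or not their Total level fell. LAMB3, the beta chain of the laminin that anchors hemidesmosomes, was at 12.62, 12.92, 13.37 and 13.40 in Total, 11.04, 10.99, 12.87 and 12.99 in LMW and 12.37, 12.26, 13.71 and 13.84 in HMW. It was higher with the knockdown in all 3 preparations without overlap, in HMW by 1.46 (SE 0.18, adjusted p = 9.13e-13). LAMA5 was at 9.56, 9.51, 9.82 and 9.90 in Total, 8.12, 7.38, 8.92 and 9.08 in LMW and 8.43, 7.76, 9.49 and 9.78 in HMW and rose in HMW by 1.54 (SE 0.42, adjusted p = 0.00496). LAMB1, by contrast with LAMB3, was lower in Total and higher on polysomes. Its values were 10.75, 10.75, 10.08 and 10.04 in Total, 6.01, 7.24, 8.29 and 8.29 in LMW and 8.35, 9.58, 10.78 and 10.72 in HMW. Its HMW difference of 1.78 (SE 0.38, adjusted p = 0.000153) was the mean of 2.43 in the mock pair and 1.14 in the 10 Gy pair. LAMC1, the gamma chain that joins LAMB1 in many laminin trimers, was at 11.29, 11.40, 10.72 and 11.03 in Total, 7.34, 8.20, 9.10 and 9.35 in LMW and 9.30, 10.44, 11.04 and 11.36 in HMW. It showed the same opposite signs, with 1.33 (SE 0.34, adjusted p = 0.00268) in HMW, though a second LAMC1 probe set read 0.06 in Total. LAMB2 was at 6.42, 6.58, 7.84 and 8.24 in HMW and rose by 1.54 (SE 0.41, adjusted p = 0.00415).

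Of the 4 families, the matrix glycoproteins had the highest median of the knockdown effect in HMW minus that in Total, 2.13. It was 1.46 for laminins, 0.90 for integrins and 0.51 for collagens. The glycoprotein median is the value of FBN1, which was at level on 1 HMW array, so it rests largely on values below level. FN1 was at 13.64, 13.79, 12.60 and 12.79 in Total, 8.67, 9.01, 10.45 and 10.58 in LMW and 9.50, 9.78, 12.08 and 11.99 in HMW. It was lower with the knockdown in Total and higher in both polysome pools, without overlap in any preparation. Its HMW difference was 2.40 (SE 0.33, adjusted p = 5.61e-11), and its 3 further probe sets at level had the same signs. FBN2 was at 11.34, 11.19, 9.72 and 10.07 in Total, 5.60, 6.55, 7.89 and 8.27 in LMW and 8.42, 8.85, 10.74 and 10.67 in HMW, with 2.06 (SE 0.39, adjusted p = 1.09e-05) in HMW. TNC was at 8.10, 7.91, 7.72 and 7.09 in Total, 4.57, 4.40, 4.73 and 4.30 in LMW and 6.09, 6.01, 8.0 and 6.61 in HMW, with 1.26 (SE 0.41, adjusted p = 0.0259) in HMW, or 1.90 in the mock pair and 0.61 in the 10 Gy pair. Its LMW values were below level on all 4 arrays. HSPG2 was at 8.25, 8.73, 8.56 and 8.82 in Total, 7.08, 6.96, 7.60 and 8.18 in LMW and 7.08, 7.27, 8.21 and 8.67 in HMW and rose in HMW by 1.27 (SE 0.42, adjusted p = 0.0303). FBN1 was at 7.75, 8.08, 6.61 and 6.64 in Total, 4.04, 4.82, 4.49 and 4.74 in LMW and 4.60, 5.41, 5.48 and 6.20 in HMW. Its HMW difference of 0.84 did not pass (adjusted p = 0.2), and only 5 of its 12 values were at level.

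Among the collagens, COL12A1 and COL4A5 rose most in HMW. COL12A1 was at 10.49, 10.27, 9.81 and 9.97 in Total, 5.31, 5.77, 7.13 and 7.49 in LMW and 7.18, 7.78, 10.05 and 10.04 in HMW, and its HMW difference was 2.56 (SE 0.42, adjusted p = 1.35e-07). Its 2 further probe sets at level were also higher in knockdown HMW. COL4A5 was at 9.72, 10.16, 10.00 and 10.21 in Total and 7.68, 8.51, 10.47 and 10.83 in HMW, with a difference of 2.55 (SE 0.40, adjusted p = 4.52e-08) in the latter. COL16A1 rose by 1.47 (SE 0.42, adjusted p = 0.00861) and COL8A1 by 1.23 (SE 0.40, adjusted p = 0.0294). The COL8A1 value was the mean of 1.93 in the mock pair and 0.52 in the 10 Gy pair. The COL4A1 and COL4A2 mRNAs, which fell in Total, differed in HMW by 0.23 and 0.10 without passing (adjusted p = 0.842 and 0.932). COL7A1 was near 0 there, at -0.02.

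In light polysomes 17 members rose and 1 fell, where 10.3% of all genes rose and 5.10% fell, and the median was 0.87. In the mock pair alone 16 members were at least 2-fold higher (16.7% of all genes), and in the 10 Gy pair 17 were (13.5%). Of the 17 that rose, 13 also rose in HMW. The share of all genes with both calls was not counted, so the 13 only describe these members. ITGB4 (2.88, SE 0.44, adjusted p = 9.05e-09) and ITGA2 (2.16, SE 0.41, adjusted p = 1.13e-05) had the greatest differences, followed by COL1A1, whose probe sets disagree (0.34 with their median), and FBN2 (2.01, SE 0.41, adjusted p = 3.88e-05). The rank of ITGA2 rests on its probe set, since a second one, at level on 12 arrays, read 0.81. In the 10 Gy pair alone ITGA2 differed by 1.07, LAMB1 by 1.05 and COL4A5 by 0.55, against means of 2.16, 1.67 and 1.51. ITGA2 and ITGAV did not pass in LMW with all 12 arrays in one fit (adjusted p = 0.0725 and 0.0593). LAMB3 rose by 1.92 (SE 0.27, adjusted p = 8.75e-10), and the other 4 laminins rose by between 1.22 and 1.67. ITGA5 (1.78, SE 0.41, adjusted p = 0.000437), ITGA6 (1.34, SE 0.46, adjusted p = 0.0277), ITGA3 (1.40, SE 0.43, adjusted p = 0.0134) and COL1A1 passed in LMW and not in HMW. Of these 4, ITGA5 and COL1A1 also passed the test of the difference between the pools, given further on. ITGAE was the member that fell, at -1.93 (SE 0.47, adjusted p = 0.000955).

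**Figure D3:**
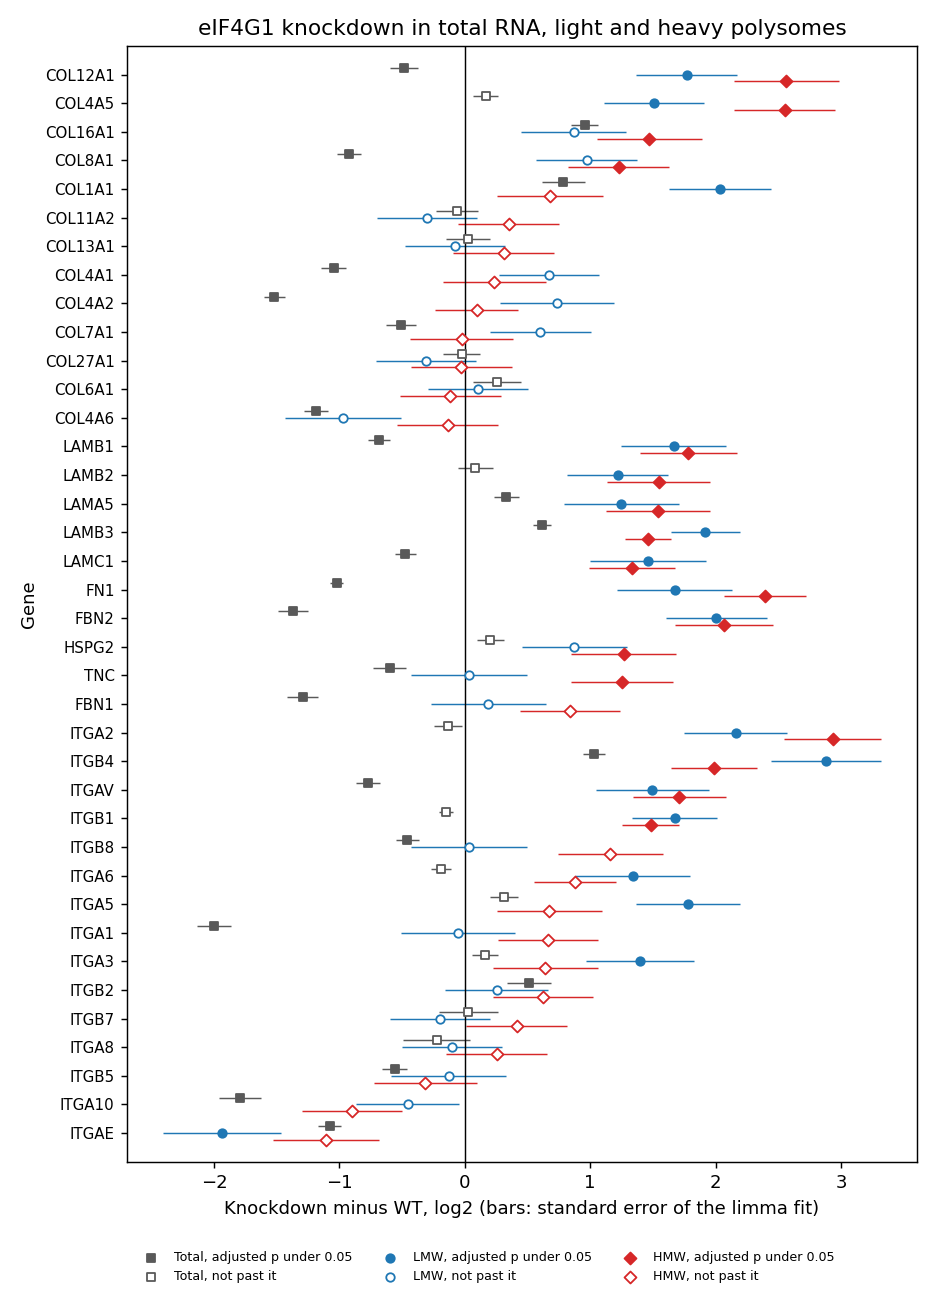
Difference between knockdown and WT (log2, x axis) for each of the 38 chains and glycoproteins in Total (grey squares), LMW (blue circles) and HMW (red diamonds), with the SE of the limma fit as bars; filled symbols have an adjusted p under 0.05. FN1 lies at -1.02 in Total and at 1.67 and 2.40 on polysomes, whereas LAMB3 and ITGB4 lie right of 0 in all 3.

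Whether the knockdown effect differed between preparations was tested on differences between arrays. These fits use the same HMW arrays as the comparisons above and do not add independent evidence. For HMW minus Total, 15 of 39 members had a more positive knockdown effect in HMW and 0 a more negative one, where 2.84% and 0.453% of all genes did. By limma 24 members were above and 0 below 0 at an unadjusted p under 0.05, against 9.24% and 6.44% of all genes. The 15 were COL12A1, COL4A2, COL4A5, COL8A1, FBN1, FBN2, FN1, ITGA1, ITGA2, ITGAV, ITGB1, LAMB1, LAMB2, LAMC1 and TNC, each with the same sign in 2 of 2 pairs. FBN2 (3.43, SE 0.50, adjusted p = 3.95e-09), FN1 (3.42, SE 0.63, adjusted p = 1.19e-05), ITGA2 (3.07, SE 0.44, adjusted p = 2.17e-09) and COL12A1 (3.05, SE 0.55, adjusted p = 6.97e-06) led. The member median was 1.06 against -0.02 over all genes. In the mock pair alone 18 members were at least 2-fold above 0 (15.7% of all genes), and in the 10 Gy pair alone 21 were (3.50%). In that pair alone ITGA2 differed by 1.77, ITGAV by 1.54, COL8A1 by 1.40 and ITGB1 by 0.76, against means of 3.07, 2.48, 2.15 and 1.63. LAMB3 (0.84, adjusted p = 0.252) and ITGB4 (0.95, adjusted p = 0.157), which rose in every preparation, did not pass this test. Of the 17 members that rose in HMW, 8 fell in Total: COL12A1, COL8A1, FBN2, FN1, ITGAV, LAMB1, LAMC1 and TNC. The fall is unsettled for COL12A1 and LAMC1, whose second probe sets read 0.86 and 0.06 in Total. The share of all genes with both calls was not counted, so the 8 only describe these members.

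Between the 2 polysome pools, by contrast, few effects differed. For HMW minus LMW, 2 members had a more positive and 2 a more negative knockdown effect in HMW, where 5.26% and 8.07% of all genes did, so the members' share was near that of all genes. ITGB8 was at 10.10, 10.27, 9.65 and 9.79 in Total, 7.47, 9.31, 8.43 and 8.42 in LMW and 7.27, 9.22, 9.35 and 9.46 in HMW and differed by 1.13 (SE 0.36, adjusted p = 0.0213). Its WT mock polysome values were low in both pools, and its LMW values overlapped between genotypes. ITGAE differed by 0.83 (SE 0.21, adjusted p = 0.00402), with -1.93 in LMW and -1.11 in HMW. ITGA5 was at 7.17, 7.44, 7.54 and 7.69 in Total, 6.88, 5.90, 8.14 and 8.19 in LMW and 7.33, 7.27, 8.11 and 7.83 in HMW, with knockdown differences of 1.78 in LMW and 0.67 in HMW. The difference between these was -1.11 (SE 0.35, adjusted p = 0.0203). COL1A1 was at 6.10, 6.65, 7.24 and 7.08 in Total, 6.58, 5.52, 8.0 and 8.17 in LMW and 8.04, 7.52, 8.13 and 8.78 in HMW. Its difference of -1.35 (SE 0.45, adjusted p = 0.0269) read -0.05 with the median of its probe sets and did not pass with cyclic loess normalisation (adjusted p = 0.0522).

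Markers of cell type moved with these differences, and their part in them was not tested. The summed intensity of the epithelial markers EPCAM and CDH1 was 997 to 1028 in WT and 2729 to 2886 in knockdown Total, 134 to 215 and 1315 to 1611 in LMW, and 476 to 847 and 3810.3 to 3892 in HMW. Of the 6 fibroblast markers, DCN, which carries most of their summed intensity, was at 10.15 and 10.54 in WT Total and 7.05 and 6.93 in knockdown Total, and at 6.22 and 6.89 in WT and 9.29 and 9.46 in knockdown HMW. PDGFRB, the other one at level, was at 5.65 and 5.37 in WT and 5.60 and 5.75 in knockdown Total, with overlap. The luminal list, 4 of 7 at level, summed to 5309.9 to 5432 in WT and 8681 to 9351 in knockdown Total. The basal list summed to 17799 to 19323 in WT and 10762 to 11118 in knockdown Total, but to 13825 to 16211 and 21937 to 27783 in LMW, and to 27180 to 28485 and 19555 to 24046 in HMW. Its members went different ways in Total: KRT14 was at 13.38 and 13.19 in WT and 12.05 and 11.95 in the knockdown, and CDH3 at 10.34 and 10.55 and 10.87 and 11.05.

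Genes that make, bind or signal from these proteins were counted in 4 lists. Over all genes, 20.7% rose and 19.8% fell with the knockdown in Total, 10.3% and 5.10% in LMW, and 5.82% and 4.09% in HMW. Of 23 measured collagen synthesis genes, 2 rose and 8 fell with the knockdown in Total, 8 rose and 0 fell in LMW, and 2 rose and 0 fell in HMW, with a median of -0.11 in HMW. The share that rose in HMW, 2 of 23, was near that of all genes. The 2 that rose in HMW were PLOD2, a lysyl hydroxylase, at 2.73 (SE 0.38, adjusted p = 1.07e-10), and MIA3, which loads procollagen into transport carriers, at 2.40 (SE 0.41, adjusted p = 6.04e-07). In Total the lysyl oxidase LOX fell by 2.38 on the log2 scale and the prolyl hydroxylase subunit P4HA1 by 1.23. For the knockdown effect in HMW minus LMW, 0 of these genes were more positive and 8 more negative, where 5.26% and 8.07% of all genes were.

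Of 20 measured integrin adaptors, 1 rose and 2 fell in HMW with a median of -0.03, shares near those of all genes. Adaptors link the tails of integrins to actin. Vinculin (VCL) rose by 1.12 and PARVB, a parvin, fell by 1.33 on the log2 scale. In Total 3 adaptors rose and 4 fell, and in LMW 2 rose and 0 fell. Of 9 measured genes for non-integrin matrix receptors and proteins linked to receptors, with a median of 0.53 in HMW, 1 rose and 0 fell there. It was DST, the plakin that ties hemidesmosomes to keratin filaments and not itself a receptor, at 3.04 (SE 0.34, adjusted p = 6.81e-16). DST also rose in Total, by 0.84, and in LMW, by 3.15. Of 21 other matrix glycoproteins, 2 rose and 11 fell in Total, where LTBP1, a binder of latent TGF-beta, fell by 2.85 on the log2 scale, and 4 rose and 0 fell in HMW, where the median was 0.15. Among those 4 were the basement membrane netrin NTN4 at 2.72 and the proteoglycan VCAN at 1.77. LTBP1 had a knockdown effect 2.67 more positive in HMW than in Total (SE 0.37, adjusted p = 4.22e-10).

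The third question was the response to 10 Gy. With the effect taken as shared by both genotypes, limma called 0 of 39 members in Total and 0 in HMW, where 0.128% and 0.463% of all genes rose and 0.0492% and 0.00985% fell. At an unadjusted p under 0.05, 10 members were higher and 3 lower in Total, where 3.72% and 9.13% of all genes were, and 6 were higher and 1 lower in HMW, where 7.68% and 0.709% were. In LMW 1 member rose, ITGA2 by 1.57 (SE 0.41, adjusted p = 0.0469), where 0.345% of all genes rose and 0.0295% fell. The 1.57 was the mean of 2.66 in the WT pair and 0.48 in the knockdown pair. The WT mock LMW value of ITGA2, 4.90, was below level. Its call was lost under each of the 5 alternative settings. ITGA1 in HMW lay just outside the threshold at 1.46 (SE 0.40, adjusted p = 0.0505) and passed without the level filter (adjusted p = 0.00678) and with cyclic loess (adjusted p = 0.0379). Its mock HMW values, 4.08 in WT and 5.61 in the knockdown, were below level. Of the 4 arrays that kept ITGA1 in the fits, 2 were the irradiated HMW arrays, where it is higher. These values are therefore not read as a result.

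Within a genotype each difference compares 1 array with 1 and has no test. In WT HMW, 7 members were at least 2-fold higher after 10 Gy and 2 were lower, where 15.8% and 2.20% of all genes were, so the share of members was near that of all genes. The 7 were ITGA2 (2.90), ITGA1 (2.33), ITGAV (2.09), ITGB8 (1.94), ITGB1 (1.63), LAMB1 (1.23) and LAMC1 (1.14). For ITGA1 the WT mock HMW value, 4.08, was below level. In knockdown HMW, 0 members were at least 2-fold higher and 1 lower, where 0.335% and 0.512% of all genes were, and these 7 differed there by between -0.15 and 0.60. In WT LMW, 5 members were at least 2-fold higher and 3 lower (15.9% and 4.14% of all genes), and in knockdown LMW 0 were in either direction (0.226% and 1.10%). In Total 0 members changed 2-fold in WT (0.0788% of all genes higher and 0.00985% lower) or in the knockdown (0.0197% and 0.945%). The WT HMW values rest on the WT mock HMW array that stood apart, and whether the WT mock LMW array did is not shown. The difference between the genotypes was not tested.

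**Figure D4:**
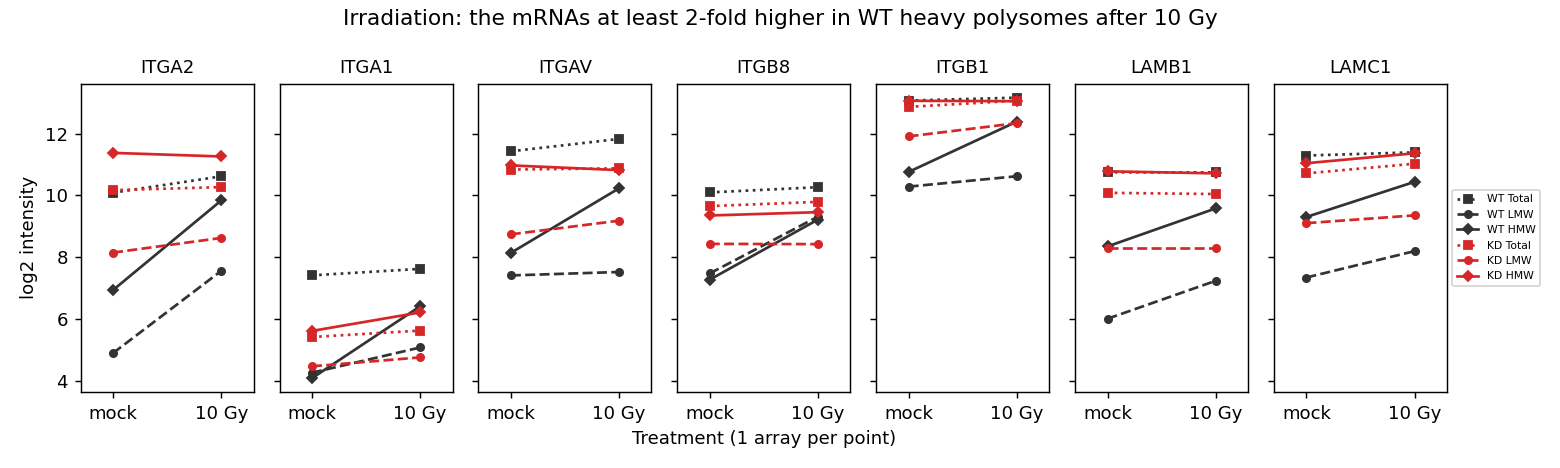
Log2 intensity in mock and 10 Gy cells for the 7 mRNAs that were at least 2-fold higher after 10 Gy in WT heavy polysomes, with WT in black, knockdown in red, and Total, LMW and HMW as dotted, dashed and solid lines; each point is 1 array. The solid black lines climb because the mRNAs were picked by that rise, by 2.90 for ITGA2 and 1.14 for LAMC1. They start from the WT mock HMW array, which stood apart across all genes, and for ITGA1 from a value below level, 4.08. The solid red lines change by -0.15 to 0.60.

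ITGB3BP, which shares only its letters with the integrins, was at 9.47, 9.22, 9.13 and 8.86 in Total, 8.17, 9.55, 7.85 and 7.51 in LMW and 8.55, 9.09, 8.58 and 8.47 in HMW. It fell in Total, at -0.35 (SE 0.10, adjusted p = 0.0187), and was called in neither polysome pool with the knockdown. The 7 dim members (COL11A2, COL13A1, COL27A1, COL6A1, ITGA8, ITGB2 and ITGB7) gave 1 knockdown call in the 3 preparations, ITGB2 in Total (0.51, SE 0.17, adjusted p = 0.0414), with the level limit given above. For the 39 members, 25 further probe sets of the same genes were at level, and their knockdown difference had the sign of the probe set used in 20 cases in Total, 20 in LMW and 22 in HMW.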

How the data were processed

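The study measured 12 arrays of MCF10A RNA, 1 for each of 4 conditions and 3 preparations. The authors deposited linear intensities per probe set, made with RMA per the submitters' processing notes. No RMA version is named there, nor whether the 12 arrays were processed jointly. Since RMA sets the arrays to like distributions (medians of 22.6 to 24.4), a change in the total amount of polysomal RNA is not seen. Labelled cRNA was made with a kit that primes at the 3' end, per the labels' protocols. The deposited intensities were turned to log2. Of 54675 probe sets, 41097 had 1 symbol in the platform annotation, 1801 had several and 11777 were not listed; those with 1 symbol were used, and a gene was read from its probe set with the highest mean. Genes at log2 6 or more on 4 or more arrays entered the fits.

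Differences were tested in limma 3.58.1 (R 4.3.3) with intensity-trended moderated variances and Benjamini-Hochberg adjustment at 0.05 over 10157 genes; the script was tested on simulated data. Fraction comparisons had the condition as a block over 8 arrays (3 residual degrees of freedom). Knockdown and 10 Gy effects were 2 additive terms of 1 fit to the 4 arrays of a preparation or the 4 differences between preparations (1 residual degree of freedom). Every kept member could be named, with full values for preset members and the extremes of each comparison. The members and lists were chosen with earlier results of these data known. The number of arrays limits the precision. Promoter sequences are RefSeq's, listed for 33 of the 39 members.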

Additional observations from a re-analysis of the deposited data

Results flagged for a closer look

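For 19 results the knockdown effect differed between RNA preparations by a test of the difference itself (limma, Benjamini-Hochberg adjustment at 0.05 over all genes, each in 2 of 2 pairs). The effect in HMW exceeded that in Total by 3.43 for FBN2, 3.42 for FN1, 3.07 for ITGA2 and 3.05 for COL12A1. It exceeded it by 2.66 for ITGA1, 2.48 for ITGAV, 2.47 for LAMB1, 2.38 for COL4A5, 2.15 for COL8A1 and 2.13 for FBN1. For TNC the excess was 1.86, for LAMC1 1.81, for ITGB1 1.63, for COL4A2 1.61 and for LAMB2 1.46. Between HMW and LMW the difference was 1.13 for ITGB8, 0.83 for ITGAE, -1.11 for ITGA5 and -1.35 for COL1A1. In the 10 Gy pair alone the excess over Total was 1.77 for ITGA2, 1.54 for ITGAV, 1.40 for COL8A1 and 0.76 for ITGB1. ITGA1 and FBN1 were at level on few arrays, 4 and 5 of 12, so their differences include values below level.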

How the results depend on the processing

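Of 65 alternative counts of called members, 44 were within 1.5 times the count reported. The labels carry no replicate numbers, so samples were paired by condition: the condition was a block in the fraction fits. Leaving out 1 matched pair gave 18 to 23 calls in HMW against LMW, 5 to 12 in HMW against Total (5 without the WT 10 Gy pair) and 28 to 30 in LMW against Total. Without the condition block the first of these counts was 2 and the second 6. Using the median of a gene's probe sets, or leaving out probe sets ending in _x_at or _s_at, left 26 members above the filter. With the median, those 3 fraction comparisons gave 14, 5 and 19 calls, and the knockdown gave 15 in Total, 11 in HMW and 8 in HMW minus Total. For the same 26 members the reported probe sets gave 16, 7, 19, 18, 13 and 9. Without those endings, HMW against LMW gave 15 calls, HMW against Total gave 4, and the knockdown gave 11 in LMW and 11 in HMW, and the reported probe sets gave 16, 4, 11 and 11. Fitting all 12 arrays together left 3 knockdown calls in Total, including ITGA10, which entered the fits only through WT. The 10 Gy call in LMW became 0 in all 5 alternatives, and 10 Gy in HMW gave 2 without the level filter and 1 with cyclic loess. Members changed 2-fold within WT by 10 Gy numbered 4 (median) or 5 (no such endings) in LMW and 5 (median) in HMW. Of 868 repeated member calls, 738 kept direction and threshold, 128 kept direction only and 2 reversed: ITGB5 in HMW against LMW (0.13) and COL1A1 with the knockdown in Total (-0.20). Where not stated, the cause was not tested. The comparison with protein length was not run. Dim members limit what can be read: 7 never reached log2 7.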
